A study of Mus musculus with 20 samples.

Results

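The 52 genes described here carry cells through mitosis: they encode the cyclins and kinases that start it, the complexes that build the spindle and attach chromosomes to it, and the proteins that split the cell. They were taken by symbol from the table of protein-coding genes, in which all 52 of a given list of 52 symbols were found among 22048 genes. All 52 passed the filter on low counts that 13072 genes passed, so none of them is left out below. The genes were read in 20 RNA-seq libraries of mouse CD4+ T cells from spleen and peripheral lymph nodes, 2 for each of 10 groups. WT mice carried CD4Cre, a Cre recombinase driven by Cd4 regulatory sequences and active in T cells, and KO mice carried CD4Cre together with loxP-flanked (FL/FL) alleles of Dot1l, which encodes the methyltransferase of lysine 79 on histone H3. All 10 groups therefore carried CD4Cre. The WT and KO naive groups were the isolated CD4+ starting cells. The other groups were cultured for 4 days with 10 ng/ml IL-2 on plates coated with antibodies to CD3 and to CD28, each at 1 µg/ml, and live CD4+ cells were sorted at the end. Th1 cultures (WT and KO) received 10 ng/ml IL-12 and 10 µg/ml anti-IL-4. Th2 cultures (WT and KO) received 10 ng/ml IL-4 and 10 µg/ml anti-IFN-g. Further WT Th1 and WT Th2 cultures held 1 µM of SGC0946, an inhibitor of DOT1L, or 1 µM of SGC0649, its control compound. Ages of the mice are not in the labels.

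Mitotic genes are transcribed late in the cell cycle. A resting T cell holds little of these mRNAs, and a T cell stimulated through its receptor and CD28 divides several times in the following days. The transcription factor FOXM1 and the MuvB complex with B-MYB switch the genes on in late S and G2 phase, and the DREAM complex with RB family proteins keeps them off in resting cells. At mitotic entry CDC25 phosphatases activate CDK1 bound to cyclin B. At anaphase the ubiquitin ligase APC/C, with CDC20, destroys securin and cyclin B. In bulk RNA a smaller share of cycling cells and less RNA of these genes per cycling cell cannot be told apart.

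Promoter sequences are shown for 8 members that the results below turn on, among them Ttk and Ncapg, which had the largest rises in WT Th2 cultures, Cdc25b, which was already high in naive cells, and Pttg1, which fell in WT cultures. RefSeq promoters on GRCm38.p6, 250 bases before to 50 after a transcript start, were matched to 43 of the 52 genes (45 promoters). Each was searched on both strands for the cell cycle homology element (CHR) TTTGAA, which MuvB binds, for its variant TTCGAA, for the NF-Y box CCAAT, and for the E2F sites TTTCCCGC and TTTGGCGC. None of the motifs contains another. The following 8 promoters run 5′ to 3′ along the gene, with any of these motifs, on either strand, in capitals. They belong to Cdk1 (chr10:69352863-69353162, minus strand), Ccnb2 (chr9:70421505-70421804, minus strand), Plk1 (chr7:122159185-122159484, plus strand), Top2a (chr11:99024140-99024439, minus strand), Ttk (chr9:83834439-83834738, plus strand), Ncapg (chr5:45669675-45669974, plus strand), Cdc25b (chr2:131186698-131186997, plus strand) and Pttg1 (chr11:43425932-43426231, minus strand).
Cdk1: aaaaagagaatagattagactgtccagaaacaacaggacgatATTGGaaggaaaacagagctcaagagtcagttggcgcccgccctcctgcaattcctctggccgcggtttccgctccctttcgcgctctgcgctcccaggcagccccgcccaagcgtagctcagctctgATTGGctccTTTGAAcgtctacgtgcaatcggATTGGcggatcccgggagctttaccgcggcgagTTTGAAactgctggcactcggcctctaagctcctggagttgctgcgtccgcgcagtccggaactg
Ccnb2: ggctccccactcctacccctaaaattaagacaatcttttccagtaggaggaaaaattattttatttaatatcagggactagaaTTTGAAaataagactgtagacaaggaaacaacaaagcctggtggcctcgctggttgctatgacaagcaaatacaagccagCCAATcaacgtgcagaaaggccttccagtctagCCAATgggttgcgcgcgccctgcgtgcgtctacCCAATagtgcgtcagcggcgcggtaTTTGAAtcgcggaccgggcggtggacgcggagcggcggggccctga
Plk1: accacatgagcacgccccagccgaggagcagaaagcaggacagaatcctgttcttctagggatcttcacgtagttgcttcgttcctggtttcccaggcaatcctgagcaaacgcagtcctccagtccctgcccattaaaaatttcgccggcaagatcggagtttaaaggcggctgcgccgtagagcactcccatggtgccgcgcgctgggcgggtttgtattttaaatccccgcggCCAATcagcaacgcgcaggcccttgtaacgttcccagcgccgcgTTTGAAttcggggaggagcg
Top2a: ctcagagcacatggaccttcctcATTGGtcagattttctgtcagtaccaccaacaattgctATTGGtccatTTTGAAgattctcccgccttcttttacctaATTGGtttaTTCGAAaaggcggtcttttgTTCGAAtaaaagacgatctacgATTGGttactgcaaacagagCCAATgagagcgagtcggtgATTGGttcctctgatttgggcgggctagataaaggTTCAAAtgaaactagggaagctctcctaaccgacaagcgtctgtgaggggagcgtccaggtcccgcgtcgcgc
Ttk: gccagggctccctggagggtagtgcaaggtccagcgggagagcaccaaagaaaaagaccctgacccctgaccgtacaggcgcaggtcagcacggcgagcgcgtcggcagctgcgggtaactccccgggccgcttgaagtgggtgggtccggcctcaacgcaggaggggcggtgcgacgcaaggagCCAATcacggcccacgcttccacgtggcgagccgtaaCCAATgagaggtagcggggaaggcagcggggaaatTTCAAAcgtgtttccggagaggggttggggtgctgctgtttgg
Ncapg: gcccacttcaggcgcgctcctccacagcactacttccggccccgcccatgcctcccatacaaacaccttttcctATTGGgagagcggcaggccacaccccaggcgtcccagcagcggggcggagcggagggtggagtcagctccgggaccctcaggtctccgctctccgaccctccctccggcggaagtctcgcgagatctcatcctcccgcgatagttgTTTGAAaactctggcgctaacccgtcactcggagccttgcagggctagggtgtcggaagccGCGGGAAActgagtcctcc
Cdc25b: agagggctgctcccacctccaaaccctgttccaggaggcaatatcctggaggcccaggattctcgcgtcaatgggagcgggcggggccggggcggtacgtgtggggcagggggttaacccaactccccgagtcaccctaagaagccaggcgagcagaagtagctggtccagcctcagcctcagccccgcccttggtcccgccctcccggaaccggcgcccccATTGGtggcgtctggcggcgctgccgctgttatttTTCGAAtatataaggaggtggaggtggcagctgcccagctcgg
Pttg1: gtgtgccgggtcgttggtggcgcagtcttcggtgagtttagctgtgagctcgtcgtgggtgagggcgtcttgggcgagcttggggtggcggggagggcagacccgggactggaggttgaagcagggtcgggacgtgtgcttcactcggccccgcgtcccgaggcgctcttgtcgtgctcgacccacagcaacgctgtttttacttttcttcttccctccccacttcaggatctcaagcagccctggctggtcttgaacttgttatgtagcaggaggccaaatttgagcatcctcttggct

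A CHR of either spelling stood in 35 of the 45 member promoters (77.8%), against 62.9% of 70 promoters of other mitosis genes, 22.0% of 41 promoters of DNA replication genes and 19.2% of all 32851 promoters of the table. CCAAT stood in 33 (73.3%), against 62.9% in other mitosis genes, 58.5% in DNA replication genes and 37.4% in all. More than 1 CCAAT stood in 22 (48.9%), against 38.6%, 36.6% and 11.7% in the same order. A CHR together with a CCAAT was found in 30 (66.7%), against 42.9% in other mitosis genes, 12.2% in DNA replication genes and 7.52% in all. The E2F site TTTCCCGC stood in 1 member promoter (2.22%), against 4.29%, 14.6% and 1.07%, and TTTGGCGC in 1 (2.22%), against 7.14%, 12.2% and 0.514%. None of these shares was tested. Ncapg held the TTTCCCGC site, read on the opposite strand. None of these motifs stood in the windows of 7 genes: Birc5, Mad2l1, Melk, Ncaph, Nuf2, Nusap1 and Pttg1. The Pttg1 window lies inside the gene as the deposited tables place it (chr11:43420250-43426251, minus strand). The windows of Cdca3, Cdca8, Kif2c and Kif4 also lie inside their genes, and all were kept in these shares. The Mad2l1 window ends at chr6:66535270, before the deposited gene start at 66535390. Cenpa, which passed the test in neither WT culture, held 1 CHR and 2 CCAAT. Cdc25b held the variant TTCGAA and 1 CCAAT. These are matches of letters, not measured binding.

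Each library held between 9704500 and 13025588 counts in protein-coding genes, and the lowest member count in any library was 15 (Cdc25c). Gene positions are on GRCm38, from the Ensembl 84 annotation in the deposited tables. Levels are given as CPM, counts scaled to a common library size with TMM factors. Differences are log2 fold changes ± SE from a joint edgeR quasi-likelihood fit of all 20 libraries, with p-values adjusted by Benjamini-Hochberg over 13072 genes. A gene rose or fell where the adjusted p was under 0.05. Counts from other fits, such as one of the libraries of a comparison alone, have no share of all genes beside them. The labels do not say whether replicates came from separate mice, so p-values measure the spread between these libraries. Whole-gene Dot1l counts do not resolve the deleted exons: Dot1l was lower in KO Th1 (-0.39 ± 0.11, adjusted p = 0.00841) and KO Th2 cultures (-0.60 ± 0.11, adjusted p = 0.000269), and in naive cells its difference was -0.10 ± 0.11 (adjusted p = 0.544), so it gives no check of the naive KO labels. All 13 T cell markers were detected in every group. The KO Th2 replicates stood apart: all 52 members were lower in replicate 1 than in replicate 2, with a median log2 difference of -1.47 between them, while that median lay between -0.58 and 0.17 in the other 9 groups.

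Almost the whole list rose in the 4-day cultures of WT cells. Against WT naive cells, 50 members rose and 1 fell in Th1 cultures (background 34.3% of genes higher and 33.0% lower), with a median log2 change of 2.96, and 49 rose and 1 fell in Th2 cultures (background 36.9% higher and 35.0% lower), with a median of 2.16. The median over all genes tested was 0.00 and 0.03. The 2 comparisons share the WT naive libraries. Summed over the 52 genes, the level was 1094 and 1006 CPM in the WT naive replicates, 5657 and 6030.4 CPM in WT Th1 and 3194 and 4135 CPM in WT Th2. The 3 groups did not overlap.

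Mki67 (chr7:135689788-135716379, minus strand), which encodes the proliferation antigen Ki-67 that coats mitotic chromosomes, read 108 and 92.9 CPM in WT naive cells, 669 and 739.6 CPM in WT Th1 and 342 and 491 CPM in WT Th2. It rose by 2.81 ± 0.38 in Th1 (adjusted p = 1.54e-05) and by 2.05 ± 0.37 in Th2 (adjusted p = 0.000195). Per kilobase of exon, Top2a, the topoisomerase that untangles sister chromatids, had the highest level of the list in WT Th1 cultures, 98.9 ± 6.35 CPM per kb (SD, n = 2), and Ttk the lowest, 5.19 ± 0.435 CPM per kb. The largest rise in Th1 was that of Kif2c, a kinesin that takes microtubules apart at centromeres (3.86 ± 0.39, adjusted p = 8.98e-07). The largest rise in Th2 was that of Ncapg, a subunit of condensin I (3.90 ± 0.15, adjusted p = 9.70e-13), followed by Ttk, the MPS1 kinase of the spindle checkpoint (3.78 ± 0.32, adjusted p = 4.81e-08). Among the mitotic kinases Cdk1 rose in Th1 by 3.14 ± 0.37, Plk1 by 2.95 ± 0.39, Aurkb by 3.43 ± 0.32 and Bub1 by 3.48 ± 0.33, and cyclin B1 (Ccnb1) by 3.68 ± 0.42, all with an adjusted p under 0.05.

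Of the other roles, the member with the largest rise in WT Th1 cultures was Cenpf among centromere and kinetochore genes (3.74), Tpx2, which activates Aurora A on the spindle, among spindle microtubule genes (3.80), Ube2c, the ubiquitin-conjugating enzyme of the APC/C, in its group (3.60), Birc5 (survivin) in the chromosomal passenger complex (2.98) and Anln (anillin, a scaffold of the contractile ring) in cytokinesis (2.65). In WT Th2 cultures these were Cenpf (2.34), Tpx2 (3.22), Ube2c (3.01), Cdca8 (borealin, 2.41), Anln (3.10), and, for the kinesins, Kif2c (2.97). The transcription factor Foxm1, which drives many of these genes, rose by 2.67 ± 0.35 in Th1 and 1.94 ± 0.35 in Th2.

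A few members were already high in naive cells and did not rise like the rest. Per kilobase, the highest levels in WT naive cells were those of Cenpa, the centromeric histone variant (29.2 ± 0.812 CPM per kb, SD, n = 2), Cdc25b, a phosphatase that activates CDK1 (28.4 ± 1.23 CPM per kb), and Pttg1, which encodes securin, the inhibitor of separase (19.6 ± 1.83 CPM per kb). Cenpa did not pass the test in Th1 (0.45 ± 0.28, adjusted p = 0.176) or Th2 (-0.58 ± 0.29, adjusted p = 0.086). Cdc25b rose by 0.59 ± 0.15 in Th1 and 0.37 ± 0.15 in Th2, the smallest called rises of the list. Pttg1 fell, from 41.8 and 36.6 CPM in WT naive cells to 28.3 and 27.0 CPM in WT Th1 (-0.51 ± 0.12, adjusted p = 0.00134) and 18.8 and 19.4 CPM in WT Th2 (-1.04 ± 0.13, adjusted p = 1.15e-06). In Th2 the kinesin gene Kif20b also missed the test (0.53 ± 0.26, adjusted p = 0.0876).

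**Figure D1:**
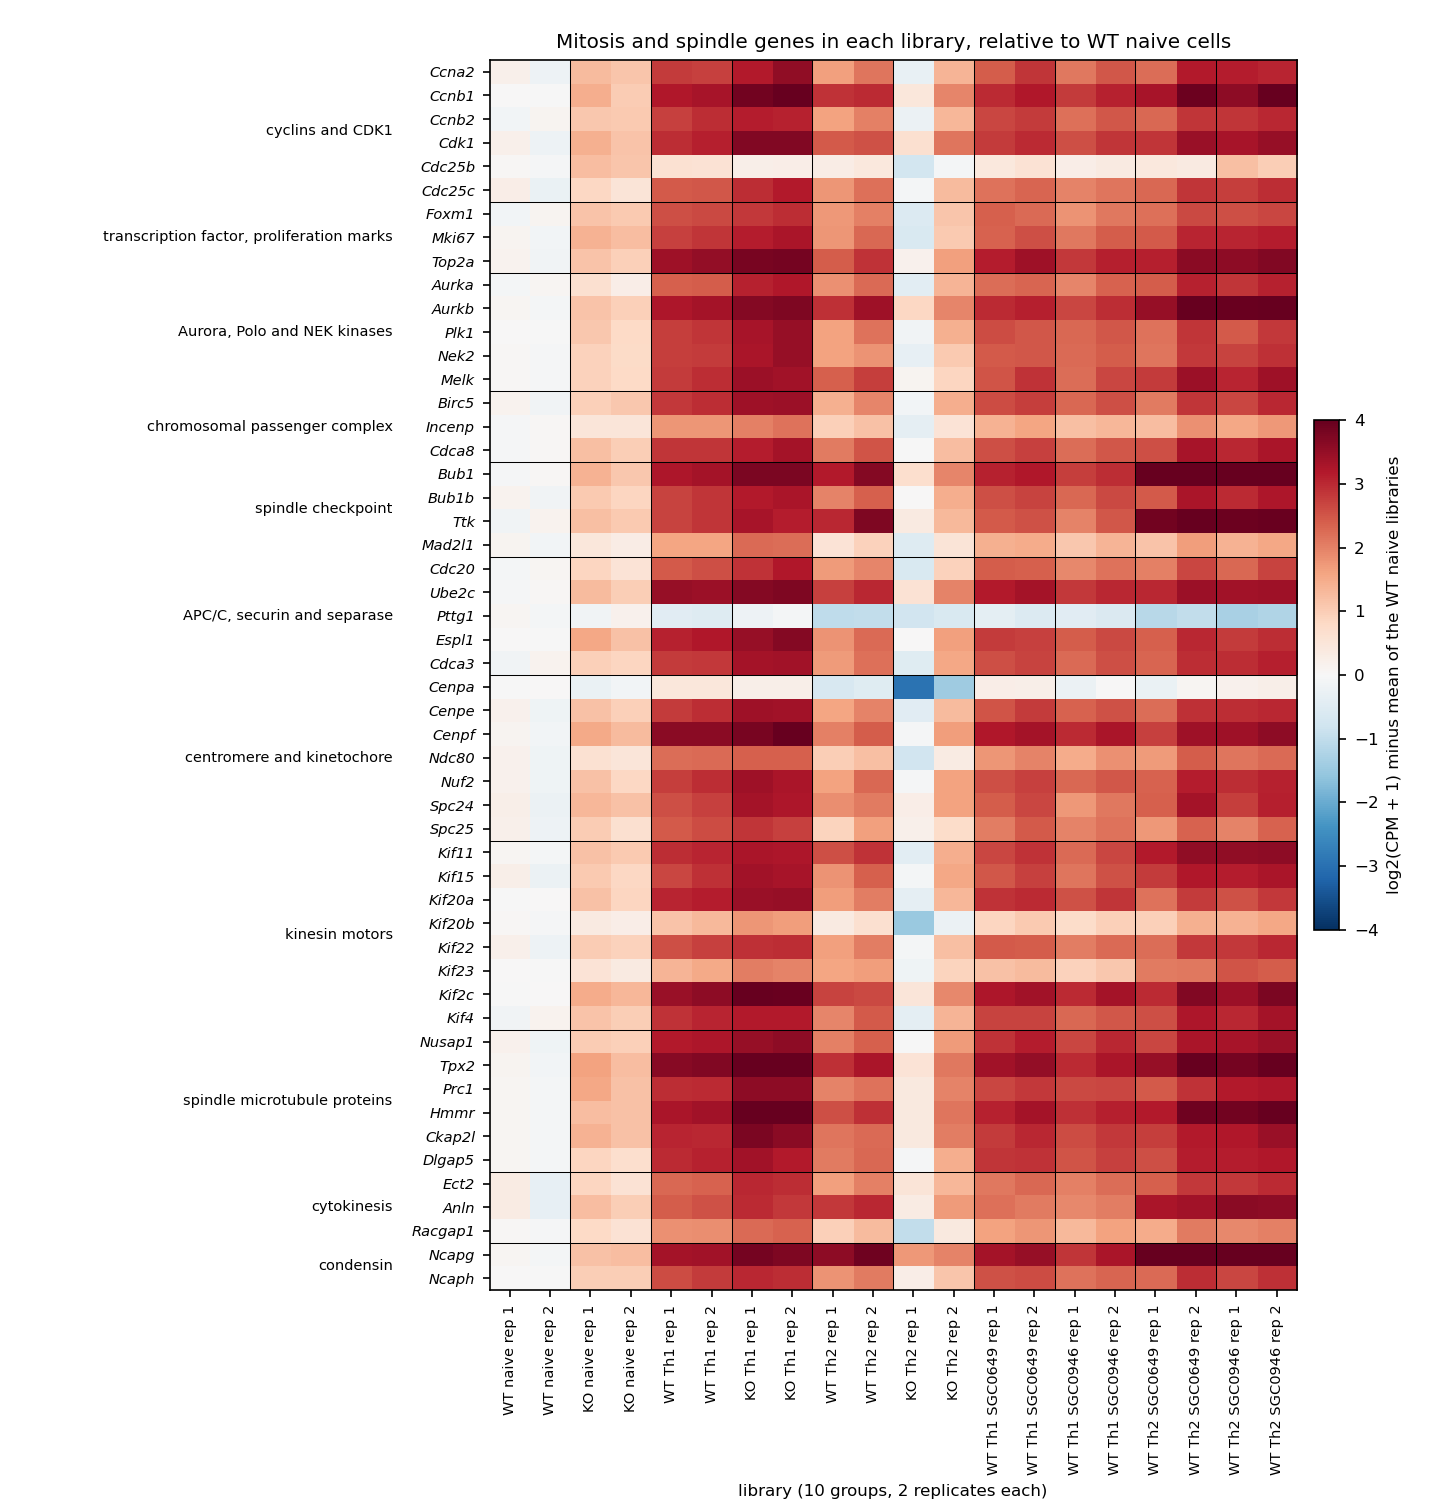
Each row is 1 of the 52 genes, in blocks by role, and each column is 1 of the 20 libraries. Colour gives log2(CPM + 1) minus the mean of the WT naive libraries, from -4 to 4. Nearly all rows are red in the culture columns other than KO Th2 replicate 1, and the rows of Pttg1, Cenpa and Cdc25b stand apart. In KO Th2 replicate 1, 22 members lie below both WT naive libraries and 19 above both.

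Among other genes of the cell cycle, 71 of 79 further mitosis genes rose and 4 fell in WT Th1 cultures against naive cells (median 2.19), from Fam64a (3.83) to the condensin gene Smc4 (-1.34). Of 44 DNA replication genes 39 rose and 2 fell (median 1.38), from Clspn, a mediator of the replication checkpoint (3.39), to the licensing factor Cdt1 (-1.01). In WT Th2 cultures 65 of the 79 mitosis genes rose and 5 fell, and 27 of the 44 replication genes rose and 4 fell. Of 14 genes listed as APC/C core, among them the coactivator gene Fzr1, 8 rose and 2 fell in Th1 (median 0.29). Of the regulators of these genes (E2F, MYB and DREAM), 13 of 19 rose and 2 fell in Th1, led by Mybl1 (3.67).

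In naive cells the question was what loss of Dot1l does to T cells before culture. The members lay higher in KO than in WT naive cells: 27 of 52 were called, all of them higher (background 28.4% of genes called in either direction), and the median log2 change was 1.10, from -0.19 (Cenpa) to 1.63 (Kif2c), against 0.01 over all genes tested. The summed level was 2028 and 1848 CPM in the KO replicates and 1094 and 1006 CPM in the WT replicates, below every culture group except KO Th2. In 50 members both KO libraries were above both WT libraries (background 34.8%). The member in which they lay below was Cenpa and the one in which they overlapped was Pttg1.

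Mki67 read 263 and 236 CPM in KO naive cells, above 108 and 92.9 CPM in WT (1.32 ± 0.37, adjusted p = 0.0165). Ncapg and Cdc25b had the smallest p-values of the list. Ncapg read 18.5 and 19.6 CPM against 8.15 and 7.36 CPM (1.30 ± 0.17, adjusted p = 3.91e-05), and Cdc25b 250.1 and 231 CPM against 109 and 103 CPM (1.19 ± 0.15, adjusted p = 3.14e-05). For Cdc25b the KO naive level was the highest of all groups apart from an overlap with WT Th2 cultures under SGC0946 (247 and 208 CPM). Top2a rose by 1.05 ± 0.34, Cdk1 by 1.35 ± 0.39, Ccnb1 by 1.54 ± 0.49, Aurkb, the kinase of the chromosomal passenger complex, by 1.12 ± 0.34, and Bub1, the checkpoint kinase at kinetochores, by 1.38 ± 0.36. Plk1, the Polo-like kinase, missed the test at 1.02 ± 0.43, adjusted p = 0.089.

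By role, 4 of 6 genes of the cyclin and CDK1 group rose in KO naive cells, 3 of 3 in the group of Foxm1 and proliferation marks, 2 of 5 Aurora, Polo and NEK kinases, 1 of 3 chromosomal passenger genes, 2 of 4 checkpoint genes, 2 of 5 genes of the APC/C, securin and separase, 3 of 7 centromere and kinetochore genes, 3 of 8 kinesins, 4 of 6 spindle microtubule genes, 1 of 3 cytokinesis genes and 2 of 2 condensin genes. The largest called change in each of the groups not yet named was that of Cdca8 (1.16), the separase gene Espl1 (1.46), Cenpf (1.47), Kif2c (1.63), Tpx2 (1.53) and Anln (1.23). The members that missed the test lay between -0.19 and 1.23 (Ccna2), so a miss does not show that a gene was level. The number of calls rested on single libraries: without WT naive replicate 2, or without KO naive replicate 1, it was 2 (Ncapg among them), without WT naive replicate 1 it was 7, and in a fit of the 4 libraries alone it was 47. Without these 3 libraries, each left out in that order, the median over the 52 genes was 1.01, 1.02 and 1.20. The share of all genes called in the fit of the 4 libraries alone is not given here.

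Markers of other cells were also higher in KO naive libraries. Summed over 9 erythroid markers the level was 1363 and 333 CPM in KO and 320.0 and 205 CPM in WT, with 7 of 9 markers called higher, none at 0 and the globin gene Hbb-bs the most abundant. Over 12 B and plasma cell markers it was 627 and 275 CPM against 153 and 102 CPM (3 of 12 called higher), and over 12 myeloid markers 1119 and 573 CPM against 456 and 354 CPM (8 of 12 called higher). Of 9 mast cell and basophil markers 4 were called higher, and of 4 NK cell markers 2. The 13 T cell markers summed to 5338 and 5985 CPM in KO and 7149 and 7320.1 CPM in WT (6 called lower and 1 higher). The part of other cells in the result was not tested.

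Other cell cycle lists are given beside all genes tested, of which 2092 of 13072 rose and 1616 fell (28.4% called in all, median 0.01). Of 79 further mitosis genes 24 rose and 1 fell (median 0.70), from Depdc1a (1.78) to Smc4 (-0.77). Of 44 DNA replication genes 9 rose and 1 fell (median 0.32), from Mcm10 (1.55) to Dbf4, the activator of the replication kinase CDC7 (-0.65). Of 19 regulators 7 rose and none fell, led by Mybl1 (1.95). Of 9 genes listed as G1 cyclins and CDKs, with the transcription factor gene Myc among them, 3 rose, led by the cyclin D1 gene Ccnd1 (1.43). Among 7 CDK inhibitors 3 rose and 1 fell: Cdkn2a had the largest rise (2.38) and Cdkn1b, which encodes p27 and restrains entry into the cycle, fell (-0.65 ± 0.11, adjusted p = 0.000558). Of 14 genes listed as APC/C core 1 rose, Fzr1 (0.48), which encodes a coactivator and not a core subunit.

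**Figure D2:**
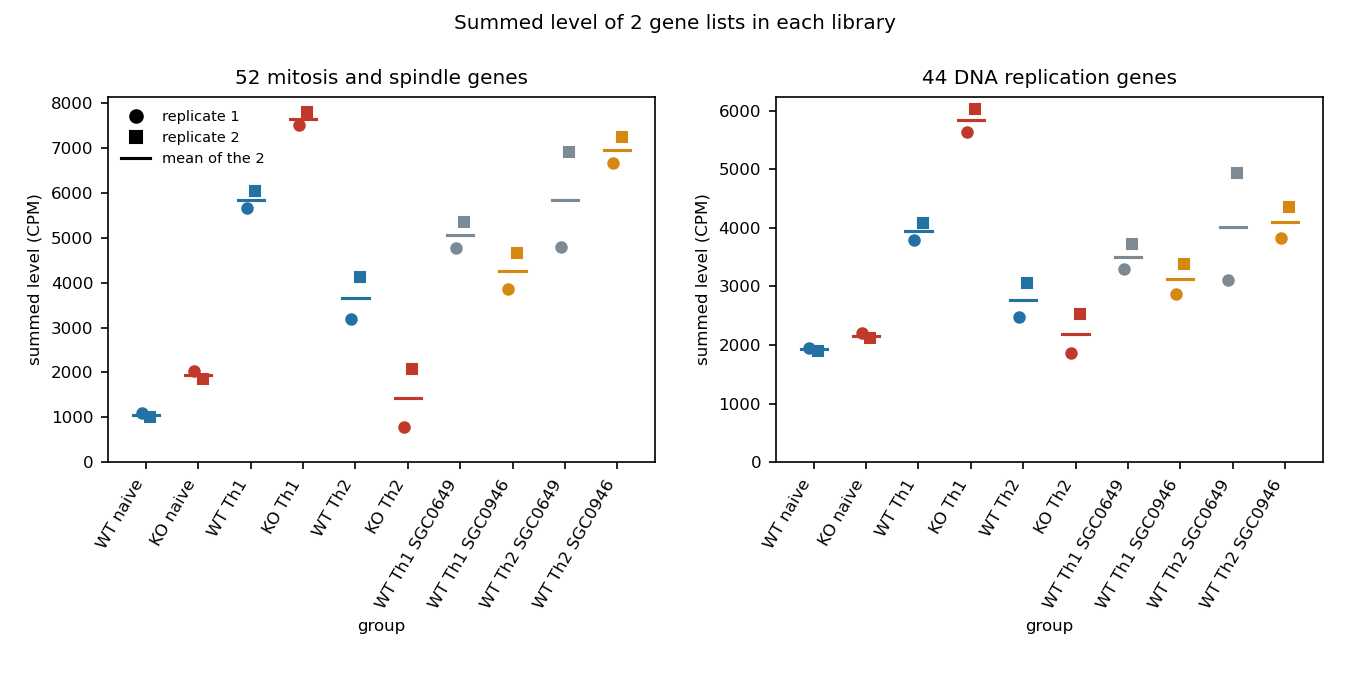
Points are the summed CPM of the 52 mitosis and spindle genes (left) and of 44 DNA replication genes (right) in each library, by group, with a line at the mean of the 2 replicates and axes that start at 0. The mitosis sum is highest in KO Th1 (7515 and 7790.0 CPM), and the 2 KO Th2 libraries (781 and 2077 CPM) lie below both WT Th2 libraries.

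In Th1 cultures the members were slightly higher in KO, and few passed the test. Of 52, 5 rose and none fell (background 24.8% of genes higher): Mad2l1, which holds CDC20 in the spindle checkpoint (0.68 ± 0.23, adjusted p = 0.0252), the cytokinesis factor Ect2 (0.67 ± 0.22, adjusted p = 0.019), Kif23, its partner in the spindle midzone (0.58 ± 0.20, adjusted p = 0.027), Ncapg (0.44 ± 0.12, adjusted p = 0.00658) and Pttg1 (0.36 ± 0.12, adjusted p = 0.019). The share called, 5 of 52, is below the background. The median log2 change was 0.45, from -0.35 (Cdc25b) to 0.75 (Aurka). In 50 members both KO libraries lay above both WT libraries (background 40.4%). The 2 in which they lay below were Cdc25b and Cenpa. The summed level was 7515 and 7790.0 CPM in KO and 5657 and 6030.4 CPM in WT, and KO Th1 was the group with the highest mean for 42 of the 52 genes.

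Mki67 read 895 and 977 CPM in KO Th1 and 669 and 739.6 CPM in WT Th1, without overlap, but the difference did not pass the test (0.41 ± 0.35, adjusted p = 0.35). The other genes named in every comparison also missed it, at 0.35 ± 0.32 (Top2a), 0.67 ± 0.30 (Cdk1), 0.69 ± 0.30 (Ccnb1), 0.59 ± 0.32 (Plk1), 0.42 ± 0.25 (Aurkb) and 0.48 ± 0.25 (Bub1). The joint fit takes its spread from all groups, among them the wide KO Th2 replicates. In a fit of the 4 libraries alone, 49 members rose and 2 fell, and the share of all genes called in that fit is not given here. Whether the shared spread accounts for the misses was not tested. Leaving out any 1 of the 4 libraries left 1 or 2 calls in the joint fit (1 without WT replicate 1, WT replicate 2 or KO replicate 2, and 2 without KO replicate 1).

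Of 44 DNA replication genes 29 rose and none fell in KO Th1 cultures (median 0.58), led by Orc1 of the origin recognition complex (1.03 ± 0.20, adjusted p = 0.000506). Of 79 other mitosis genes 18 rose and 1 fell, from Arhgef39 (1.18) to Psrc1 (-0.96). Of 19 regulators 10 rose and 3 fell, from Mybl1 (0.81) to Tfdp2 (-0.53), and Cdkn1b fell (-1.22 ± 0.12, adjusted p = 3.70e-07). Among G1 cyclins and CDKs, Ccne2 rose (0.75) and Ccnd2 fell (-0.51). All 9 mast cell and basophil markers were higher in KO Th1, with a sum of 2270.1 and 984 CPM in KO and 194 and 146 CPM in WT and Cpa3 the most abundant, and the T cell markers summed to 5203 and 5156 CPM against 8468 and 8325 CPM, with 11 of 13 called lower and 1 higher. Their part in the member levels was not tested.

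In Th2 cultures the direction was the opposite. Of the 52 members 48 fell in KO and 1 rose (background 26.9% of genes lower and 26.5% higher), and the median log2 change was -1.31, from -2.71 (Ttk) to 0.33 (Pttg1), against -0.01 over all genes tested. The summed level was 781 and 2077 CPM in the KO replicates and 3194 and 4135 CPM in the WT replicates. In 49 members both KO libraries lay below both WT libraries (background 38.6%). The 3 members that did not pass the test were Birc5 (-0.91 ± 0.38), Ckap2l (-0.83 ± 0.35) and the midzone bundler Prc1 (-0.72 ± 0.33).

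Ttk (chr9:83834689-83872389, plus strand) read 4.03 and 8.52 CPM in KO Th2 and 30.4 and 50.1 CPM in WT Th2, and had the largest fall of the list (-2.71 ± 0.29, adjusted p = 1.55e-06). Its partner at the kinetochore, Bub1 (chr2:127801122-127831865, minus strand), read 10.2 and 25.8 CPM against 61.6 and 87.9 CPM (-2.08 ± 0.29, adjusted p = 3.04e-05). Ncapg (chr5:45669919-45700546, plus strand) read 28.3 and 33.8 CPM against 104 and 128 CPM and had the smallest p of the list (-1.91 ± 0.13, adjusted p = 4.20e-09). For all 3 genes both KO libraries were below both WT libraries. Mki67 read 65.3 and 206 CPM in KO and 342 and 491 CPM in WT (-1.62 ± 0.37, adjusted p = 0.00189), and here the 2 KO replicates differed more from each other than replicate 2 differed from WT replicate 1. Top2a fell by 1.60, Ccnb1 by 1.71, Aurkb by 1.74, Plk1 by 1.16 and Cdk1 by 0.98 on the log2 scale.

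By role, all 6 genes of the cyclin and CDK1 group fell in KO Th2, as did all 3 of the Foxm1 group, all 5 Aurora, Polo and NEK kinases, all 4 checkpoint genes, all 7 centromere and kinetochore genes, all 8 kinesins, all 3 cytokinesis genes and both condensin genes. The exceptions were in the chromosomal passenger complex (2 of 3 fell), the spindle microtubule genes (4 of 6) and the APC/C group (4 of 5 fell and Pttg1 rose). The largest fall of each remaining group was that of the kinase gene Melk (-2.27), Cdca8 (-1.64), Cdc20, the APC/C coactivator (-1.57), Cenpa (-1.46), Kif11, the motor that pushes spindle poles apart (-1.97), Tpx2 (-1.63) and Anln (-1.85). Pttg1 rose from 18.8 and 19.4 CPM in WT to 22.8 and 25.2 CPM in KO (0.33 ± 0.13, adjusted p = 0.0419), a call that was lost with DESeq2, with limma voom, without the filter on low counts, in a fit of the 4 libraries alone and without any 1 of them. Cenpa fell to 21.1 and 63.4 CPM, below the 168 and 175 CPM of WT naive cells, while WT Th2 cultures held 108 and 121 CPM.

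The size of the fall depended on which KO Th2 replicate was read. Without KO Th2 replicate 1 the median over the 52 genes was -0.74 with 32 calls, all lower, and without KO Th2 replicate 2 it was -2.31 with 51 calls. Without WT Th2 replicate 2 there were 30 calls, all lower, and a fit of the 4 libraries alone, where the spread of the KO replicates is not shared with other groups, gave 12, all lower. Markers of other cells also differed: 12 myeloid markers summed to 434 and 492 CPM in KO and 128 and 92.0 CPM in WT (6 called higher and 1 lower, Siglech at 0 in both groups), and the 2 CD8 T cell markers to 198 ± 97.4 CPM against 14.6 ± 2.25 CPM (SD, n = 2, both called higher, none at 0). The myeloid sum in KO lay mostly in Cst3 (169 and 191 CPM), Fcgr3 (165 and 156 CPM) and Itgax (59.6 and 81.0 CPM). In WT these read 65.8 and 68.7, 2.6 and 2.7, and 1.73 and 1.34 CPM. Adgre1 went the other way (1.75 and 3.24 CPM in KO, 7.03 and 4.55 CPM in WT). Lyz2 overlapped (0 and 0.76 CPM in KO, 0.27 and 0.62 CPM in WT). Csf1r was low in both (0.88 and 1.40 CPM in KO, 0.18 and 0.10 CPM in WT). The 13 T cell markers summed to 5512 and 6264 CPM in KO and 5552 and 5214 CPM in WT. Single T cell markers differed in both directions. Cd5 read 12.4 and 18.3 CPM in KO and 297 and 298 CPM in WT. Cd4 read 175 and 157 CPM against 584 and 543 CPM. Cd3g read 836 and 1108 CPM against 278 and 248 CPM, and Thy1 1542 and 1965 CPM against 474 and 474 CPM. The 4 NK cell markers summed to 36.5 and 61.9 CPM against 14.4 and 18.6 CPM. Eomes held most of that sum, at 32.7 and 55.0 CPM in KO and 8.12 and 11.4 CPM in WT. Ncr1 read lower in KO (0.35 and 0.32 CPM against 0.82 and 0.83 CPM). Klra8 was also lower (0.26 and 0.22 CPM against 0.46 and 0.72 CPM), and Klrb1c overlapped between the groups. The part of other cells in the result was not tested.

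Of 79 further mitosis genes 65 fell and 3 rose in KO Th2 (median -1.21), from Ska3 of the kinetochore (-2.93) to Mad1l1 (1.49). Of 44 DNA replication genes 19 fell and 1 rose (median -0.41), from Orc1 (-2.10) to Lig1 (0.40). Of 19 regulators 8 fell and 2 rose: Lin9, a core subunit of MuvB, fell most (-1.64 ± 0.17, adjusted p = 5.38e-07), and Rbl2, which encodes the pocket protein p130 of DREAM, rose (0.69 ± 0.09, adjusted p = 5.08e-06). Of 14 genes listed as APC/C core, among them the coactivator gene Fzr1, 8 fell and 1 rose. The list of 9 G1 cyclins and CDKs also holds Myc, a transcription factor gene and neither a cyclin nor a CDK. Of these 9 genes 3 fell and 3 rose (Ccne1 0.79, Myc -0.66), and of 7 CDK inhibitors 2 fell and 2 rose (Cdkn1c 1.45, Cdkn2c -0.65).

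**Figure D3:**
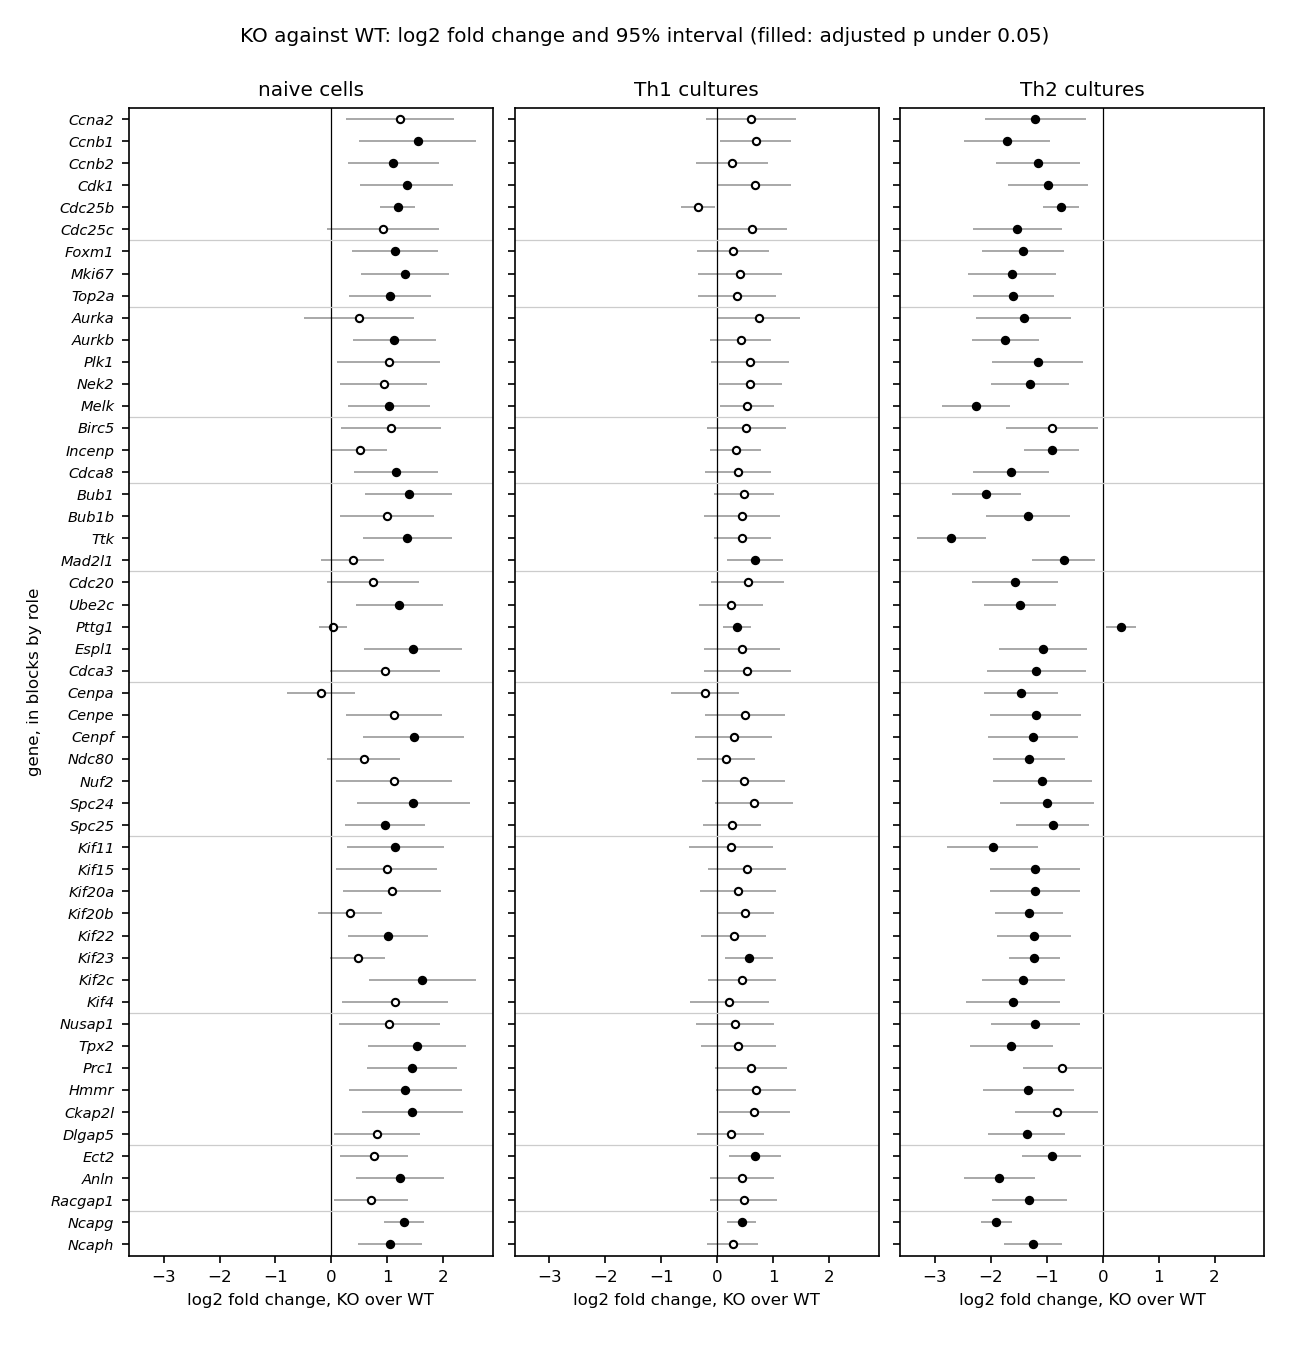
Points are log2 fold changes of KO over WT for the 52 genes with 95% intervals, in naive cells, Th1 cultures and Th2 cultures, filled where the adjusted p was under 0.05. Medians are 1.10, 0.45 and -1.31, and Pttg1 is the member to the right of 0 in Th2.

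KO cultures were also set against KO naive cells. KO Th1 cultures had 49 members higher and 1 lower (background 36.2% and 34.8%), with a median of 2.32, and the one that fell was Cdc25b (-0.94 ± 0.14, adjusted p = 2.35e-05). KO Th2 cultures had 1 higher and 7 lower (background 34.2% and 34.9%), with a median of -0.25. Ncapg rose (0.70 ± 0.14, adjusted p = 0.000368), and Cenpa (-1.85 ± 0.31, adjusted p = 9.63e-05), Cdc25b (-1.56 ± 0.15, adjusted p = 1.02e-07), Kif20b, Racgap1, Mki67, Ndc80 and Pttg1 fell. Both comparisons use the same KO naive libraries. The count in Th2 turned with the library: replicate 1 of KO Th2 was below both KO naive libraries in 51 members, and replicate 2 above both in 42. Without KO Th2 replicate 1, 18 members were called higher and 4 lower, and without KO Th2 replicate 2, 1 was called higher and 47 lower. Without KO naive replicate 1 there were 5 calls in all.

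The difference between these effects was tested directly. The KO effect in Th2 minus that in naive cells was lower for 51 of 52 members (background 18.7% of genes lower), with a median of -2.31, the largest for Ttk (-4.07 ± 0.47, adjusted p = 1.16e-05). The one without a call was Pttg1 (0.29 ± 0.17, adjusted p = 0.207). The KO effect in Th1 minus that in Th2 was higher for 50 (background 22.0% higher), with a median of 1.74, again the largest for Ttk (3.16 ± 0.38, adjusted p = 1.03e-05). The KO effect in Th1 minus that in naive cells was lower for 2 (background 16.9% lower), Cdc25b (-1.53 ± 0.21, adjusted p = 6.51e-05) and Ncapg (-0.86 ± 0.21, adjusted p = 0.00567). In a fit of the libraries of each comparison alone, the KO effect in Th1 minus that in naive cells was lower for 36 members. That in Th1 minus Th2 was higher for 23. The shares of all genes called in these fits are not given here. For Cdc25b, KO was 1.19 in naive cells, -0.35 in Th1 and -0.74 in Th2.

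Between SGC0946 and its control compound at most 1 member was called in either culture in the joint fit. In Th1 SGC0946 against SGC0649 at the same dose gave no called member by edgeR, DESeq2 or limma voom (background 0.467% of genes called), with 1 member at an unadjusted p under 0.05 and 7 called lower in a fit of the 4 libraries alone. All 52 log2 changes were below 0, with a median of -0.23 and a range of -0.66 (Spc24) to -0.05 (Pttg1). In 28 members both SGC0946 libraries lay below both SGC0649 libraries (background 23.1%). The summed level was 3862 and 4651 CPM with SGC0946 and 4780.2 and 5346 CPM with SGC0649. Mki67 differed by -0.22 (95% interval -0.97 to 0.54), Top2a by -0.31 (95% interval -1.01 to 0.38) and Ttk by -0.27 (95% interval -0.83 to 0.29). Cdk1, Ccnb1, Aurkb, Plk1 and Bub1 lay between -0.28 (Bub1) and -0.15 (Plk1).

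In Th2 cultures 1 member rose with SGC0946 (background 5.45% of genes higher) and the median was 0.22. The gene was Cdc25b, at 247 and 208 CPM with SGC0946 and 143 and 135 CPM with SGC0649 (0.71 ± 0.14, adjusted p = 0.00697). Without WT Th2 SGC0946 replicate 1, and in a fit of the 4 libraries alone, no member was called. Mki67 differed by 0.32 (95% interval -0.43 to 1.07), Cdk1 by 0.22, Top2a by 0.27, Aurkb by 0.23, Ccnb1 by 0.18, Plk1 by 0.08 and Bub1 by 0.06, none called. The SGC0649 replicates in Th2 were the widest of any group over all genes (SD of the log2 difference 0.33). Ttk, the gene with the largest fall in KO Th2, differed by -0.10 (95% interval -0.59 to 0.39). The difference between the SGC0946 effects in Th1 and Th2 had no called member by edgeR or limma voom and 1 by DESeq2 (background 0.520% called, 1 at an unadjusted p under 0.05), and 1 by edgeR without WT Th2 SGC0649 replicate 1.

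The compounds were also set against cultures without any. In Th1, SGC0649 had no called member by edgeR, DESeq2 or limma voom (background 0.0153% of genes called, none at an unadjusted p under 0.05, median -0.20). SGC0946 had none by the same tools (background 2.44% called, 7 at an unadjusted p under 0.05, median -0.45). In 38 members both SGC0649 libraries lay below both libraries without compound (background 20.8%), and in 51 both SGC0946 libraries did (background 29.4%). Fits of the 4 libraries alone called 6 and 46 members, all lower. The shares of all genes called in those fits are not given here, so the counts have no background. In Th2 the medians were above 0 for both compounds. SGC0649 had a median of 0.72 with 1 member called higher, Ncapg (0.73 ± 0.12, adjusted p = 0.017, background 0.245% higher), and 35 at an unadjusted p under 0.05. In 49 members both SGC0649 libraries lay above both libraries without compound (background 19.6%). SGC0946 had a median of 0.93 with 27 called higher (background 9.57% higher) and 50 at an unadjusted p under 0.05, the largest being Cenpf (1.27 ± 0.34, adjusted p = 0.0197) and the smallest p that of Cdc25b (0.74 ± 0.14, adjusted p = 0.00285). In 51 members both SGC0946 libraries lay above both without compound (background 30.8%). The summed level in WT Th2 cultures was 3194 and 4135 CPM without compound, 4798 and 6899 CPM with SGC0649 and 6659 and 7236 CPM with SGC0946. Both comparisons share the WT Th2 libraries without compound. The 27 calls became 1 without WT Th2 replicate 1, 15 without WT Th2 replicate 2, and 10 and 4 without SGC0946 replicate 1 and 2. The 1 call for SGC0649 became 14 without WT Th2 SGC0649 replicate 1 and none without its replicate 2 or without WT Th2 replicate 1.

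**Figure D4:**
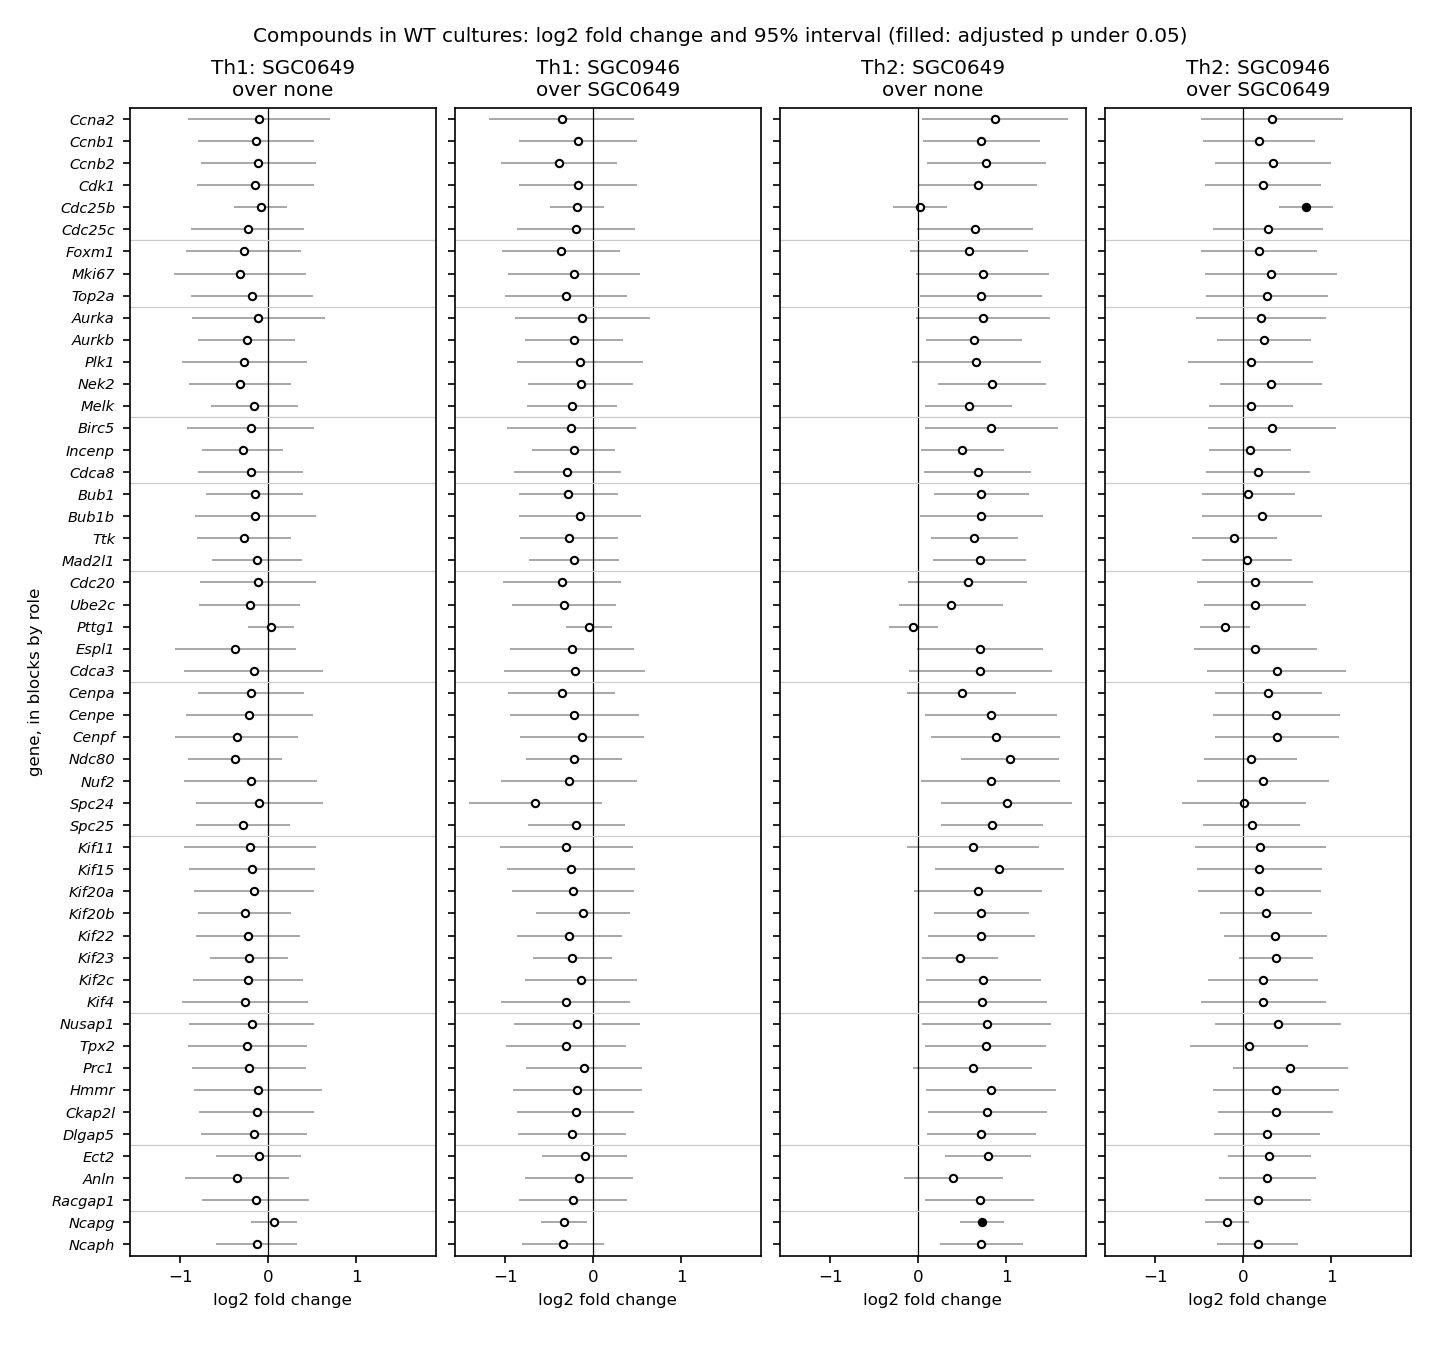
Points are log2 fold changes with 95% intervals for the 52 genes in WT cultures, filled where the adjusted p was under 0.05: SGC0649 over no compound and SGC0946 over SGC0649, in Th1 (left pair) and Th2 (right pair). Medians are -0.20 and -0.23 in Th1 and 0.72 and 0.22 in Th2, and Ncapg and Cdc25b are the filled points.

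Gene deletion and inhibitor were compared in 1 test, the KO effect minus the effect of SGC0946 over SGC0649. In Th2 42 members were called, 41 lower and 1 higher (background 32.0% of genes called in either direction), with a median of -1.59, from -2.61 (Ttk) to 0.54 (Pttg1). In Th1 it was higher for 2 (background 12.8% higher), Kif23 (0.81 ± 0.29, adjusted p = 0.0468) and Ncapg (0.77 ± 0.17, adjusted p = 0.00329), with a median of 0.69. The 42 calls in Th2 became 24 without WT Th2 replicate 2 or WT Th2 SGC0649 replicate 1, and 26 without WT Th2 SGC0946 replicate 2. The 2 calls in Th1 became 1 without any 1 of the 8 libraries and 50 in a fit of those libraries alone. The Th2 count in its libraries alone was 8. The shares of all genes called in these fits alone are not given here.

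Th1 and Th2 cultures were then compared within each setting, which asks whether polarisation itself changes the list. In WT cultures without compound, 23 members were higher in Th1 and 2 lower (background 26.0% of genes higher and 27.3% lower), with a median of 0.73. In KO cultures all 52 were higher in Th1 (background 28.1% higher), with a median of 2.50. With SGC0649 the median was -0.12, with 1 member higher in Th1 and 6 lower (background 24.3% and 24.1%), and with SGC0946 it was -0.64, with 1 higher and 19 lower (background 25.0% and 25.4%). Summed over the list, Th1 read 5844 ± 264 CPM (SD, n = 2) without compound, 5063 ± 399.9 with SGC0649 and 4256 ± 558 with SGC0946, and Th2 read 3664 ± 665, 5849 ± 1485 and 6948 ± 408 CPM. The count of 25 in WT cultures without compound became 9 without WT Th2 replicate 1, and 14 and 12 without either WT Th1 replicate, and that of 20 with SGC0946 became 8 and 12 without either Th1 replicate and 13 and 9 without either Th2 replicate.

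The members differed in how far apart Th1 and Th2 lay. In WT cultures without compound Cenpf was highest in Th1 relative to Th2 (1.40 ± 0.34, adjusted p = 0.00316), followed by Spc25, a subunit of the NDC80 complex (1.30 ± 0.27, adjusted p = 0.000796), and Kif20a, a kinesin of cytokinesis (1.26 ± 0.33, adjusted p = 0.00569). The largest called differences of the other roles were those of Birc5 (1.19), Nek2 (1.12), Espl1 (1.11), Ccnb2 (1.03), Nusap1 (1.01), Mad2l1 (0.84), Ncaph (0.79) and Racgap1 (0.73). Of the genes named in every comparison Plk1 was higher in Th1 (0.91 ± 0.34, adjusted p = 0.0363), and Mki67 (0.76 ± 0.35), Top2a (0.80 ± 0.33), Cdk1 (0.55 ± 0.31), Ccnb1 (0.33 ± 0.31), Aurkb (0.11 ± 0.26) and Bub1 (-0.16 ± 0.25) missed the test. Other lists split as well: 39 of 79 other mitosis genes and 23 of 44 DNA replication genes were higher in Th1, and 5 and 4 were lower.

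At the other end stood genes that were higher in Th2. Ttk read 24.0 and 27.1 CPM in WT Th1 and 30.4 and 50.1 CPM in WT Th2, without overlap (-0.65 ± 0.24, adjusted p = 0.0335). With SGC0649 it read 20.5 and 21.7 CPM in Th1 and 55.9 and 69.0 CPM in Th2 (-1.56 ± 0.24, adjusted p = 8.50e-05), and with SGC0946 14.3 and 20.8 CPM and 57.8 and 58.8 CPM (-1.74 ± 0.25, adjusted p = 3.49e-05). Ncapg was lower in Th1 in the same 3 settings (-0.40 ± 0.12, -1.06 ± 0.12 and -1.21 ± 0.12, each called). Anln, chosen after its values were seen, was called with the compounds (-1.21 ± 0.27 and -1.65 ± 0.28) and not without (-0.46 ± 0.27), as was Bub1 (-1.03 ± 0.25 and -1.37 ± 0.26). In KO cultures these 4 genes were higher in Th1: Ttk by 2.51 ± 0.29, Ncapg by 1.94 ± 0.13, Anln by 1.84 ± 0.30 and Bub1 by 2.40 ± 0.28. Their KO effects in Th2 were -2.71, -1.91, -1.85 and -2.08, which share the WT Th2 libraries with the comparison of WT cultures.

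**Figure D5:**
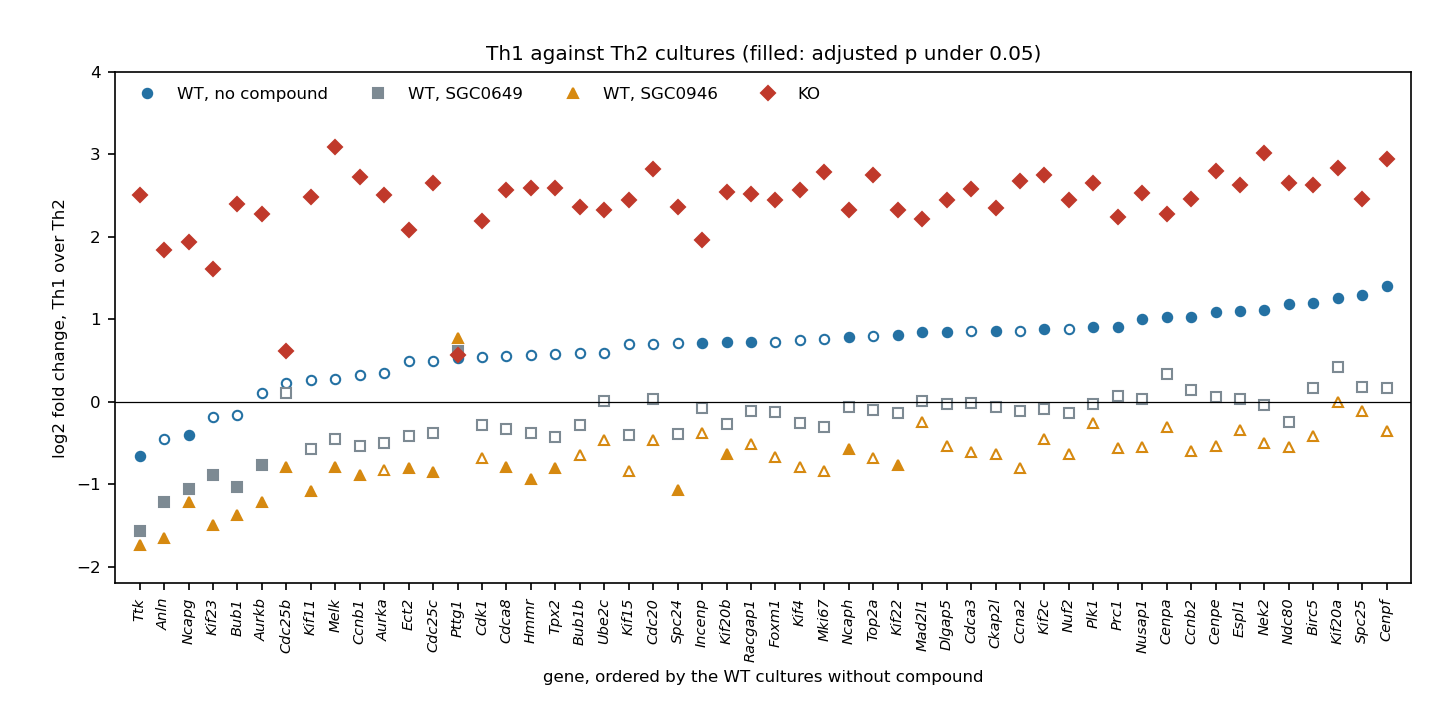
Each gene has 4 points, the log2 fold change of Th1 over Th2 in WT cultures without compound, with SGC0649, with SGC0946 and in KO cultures, with genes ordered by the WT cultures without compound and points filled where the adjusted p was under 0.05. KO points lie above 0 for all 52 genes, and Ttk, Anln, Ncapg, Kif23 and Bub1 lie below 0 in all 3 WT settings.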

How the data were processed

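The deposited tables give counts of reads per gene, made by the authors with featureCounts 1.5.3 on GRCm38 with the Ensembl 84 annotation and strand setting 2, per the file headers. edgeR and limma are named in the submitters' processing notes, and the aligner is not given in the sources used here. Deposited gene lengths in bases were used only for levels per kilobase. The 52 genes were taken by symbol, and members and lists were chosen with earlier results of these data known.

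The table of 22048 protein-coding genes was filtered with filterByExpr (minimum count 10, total 15), scaled by TMM and fitted in edgeR 4.0.16 (R 4.3.3) with a robust quasi-likelihood model of 10 groups and 20 libraries, leaving 10 residual degrees of freedom. A total of 23 contrasts were tested, 6 of them differences of effects, with Benjamini-Hochberg adjustment over 13072 genes. SE is the log2 fold change over the root of F, and intervals are 95%. The fit was tested on simulated data. Replicates 1 and 2 of the SGC0946 groups were matched to columns by their sample numbers. The column headers of both replicates start with W1 in Th1 and in Th2, while the sample titles name W1 and W2. Replicate numbers in these groups follow the titles.

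Alternatives were DESeq2 1.42.0, limma voom (limma 3.58.1), RLE scaling, no filter on low counts, the table of 47729 genes of all classes, the libraries of a contrast alone, a replicate block and each library left out. Named in every main comparison were Mki67, Top2a, Cdk1, Ccnb1, Plk1, Aurkb and Bub1, the called member with the largest change in each of 11 roles, members against the general direction, and of each other list the called genes with the highest and the lowest change. Other genes were named after their values were seen. Promoters came from RefSeq tables (GRCm38.p6), and 9 members without an entry there were not used.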

Additional observations from a re-analysis of the deposited data

Results flagged for a closer look

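In 5 comparisons of effects, members differed by the test of the difference itself (edgeR quasi-likelihood test, adjusted p under 0.05). The KO effect differed between Th1 cultures and naive cells for 2 members, Cdc25b and Ncapg, both lower (background 16.9% of genes lower). It differed between Th2 cultures and naive cells for 51, all but Pttg1 (background 18.7% lower), and between Th1 and Th2 cultures for 50 (background 22.0% higher). The KO effect differed from that of SGC0946 over SGC0649 for 2 members in Th1, Kif23 and Ncapg (background 12.8% higher). In Th2 it did for 42, 41 of them lower under KO (background 32.0% called in either direction). Both counts of 2 are a smaller share than their backgrounds. The 3 comparisons with Th2 cultures that involve KO rest on KO Th2 replicates whose members lay a median of 1.47 apart on the log2 scale. Without KO Th2 replicate 1 the counts were 50 for Th2 against naive, 45 for Th1 against Th2 and 35 for KO against SGC0946 in Th2.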

How the results depend on the processing

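Counts of called members under another setting are given where they differed by over 1.5 times, and the cause was not tested beyond the construction of each setting. The shares of all genes called under these settings are not given, so the counts have no background beside them. KO against WT naive (27) gave 8 without the filter on low counts and 47 in its 4 libraries alone. KO against WT Th1 (5) gave 15 with limma voom, 2 without the filter and 51 alone, and KO against WT Th2 (49) gave 12 alone. SGC0946 against SGC0649 gave 7 alone in Th1 (0) and 0 alone in Th2 (1). KO Th2 against KO naive (8) gave 5 without the filter and 4 alone. WT Th1 against Th2 (25) gave 15 without the filter and 46 alone, and the same with SGC0946 (20) gave 10 and 48. Against no compound, SGC0649 gave 6 alone in Th1 (0), and in Th2 (1) 4 with DESeq2 and 0 alone. SGC0946 gave 46 alone in Th1 (0), and in Th2 (27) 44 with limma voom, 8 without the filter, 17 in the table of all gene classes and 50 alone. The KO effect gave 36 alone for Th1 minus naive (2) and 23 alone for Th1 minus Th2 (50). KO minus SGC0946 effect gave, in Th1 (2), 4 with DESeq2, 5 with limma voom, 1 without the filter and 50 alone, and in Th2 (42) 8 alone. The SGC0946 effect, Th1 minus Th2 (0), gave 1 with DESeq2. RLE scaling changed no count by over 1.5 times.

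The labels do not say whether a replicate number marks 1 animal across groups, and each group has 2, so the numbers were not taken as pairs. In the SGC0946 groups the numbers follow the sample titles, as the column headers of both replicates start with W1. Deviations of same-numbered libraries of WT and KO correlated at 0.32 in naive cells, 0.15 in Th1 and 0.28 in Th2. Among the 6 groups of WT cultures all 15 pairs of groups correlated, at 0.18 to 0.70 (SGC0649 with SGC0946 0.38 in Th1 and 0.70 in Th2), and replicate 1 was above replicate 2 in 1 to 9 of 52 members; WT naive with WT cultures gave -0.14 to 0.07. The replicate block joined libraries by number alone, across WT and KO mice and across naive cells and cultures. Its counts therefore do not show what pairing by animal would give. With this block the counts were 36 for KO against WT naive, 12 for Th1 and 51 for Th2. They were 34 for WT Th1 against Th2, 4 for SGC0649 and 41 for SGC0946 against no compound in Th2, and 6 for KO minus SGC0946 effect in Th1. The block moved no other count by over 1.5 times.

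With 1 library left out, the ranges were 2 to 19 for KO against WT naive, 1 to 2 for Th1, 30 to 51 for Th2, 5 to 48 for KO Th2 against KO naive, 9 to 20 for WT Th1 against Th2 and 8 to 13 for the same with SGC0946. They were 0 to 1 for SGC0946 against SGC0649 in Th2, 0 to 14 for SGC0649 and 1 to 15 for SGC0946 against no compound in Th2, 1 for KO minus SGC0946 effect in Th1, 24 to 51 for it in Th2, and 0 to 1 for the SGC0946 effect, Th1 minus Th2. KO Th2 against KO naive turned to mostly higher without KO Th2 replicate 1, with 22 called. Signs of uncalled members turned as well. For SGC0946 against SGC0649 in Th2, Cdk1 ranged from -0.065 to 0.57, Ccnb1 from -0.11 to 0.54, Plk1 from -0.24 to 0.49, Aurkb from -0.032 to 0.55 and Bub1 from -0.12 to 0.24, with the lowest without SGC0649 replicate 1, and Ccnb1 was -0.065 and Plk1 -0.12 without SGC0946 replicate 2. For WT Th1 against Th2, Aurkb ranged from -0.092 to 0.36 and Bub1 from -0.39 to 0.11. The lone sample left in a group is assumed to vary like the other groups.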
